A study of Rattus norvegicus with 32 samples.

Results

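Interferon-stimulated genes are the genes that cells switch on when they sense interferons, and in uninfected tissue their level reports how strongly that pathway runs at rest. A list of 37 such genes was followed in rat liver, found by symbol in the table of read counts. The table held 34 of them among its 17327 genes, and all 34 passed the filter on low counts that left 11002 genes for testing. Parp12, Herc6 and Xaf1 had no entry under those symbols and were not analysed here. Each of the 34 had reads in every library. Liver RNA was sequenced from 32 Charles River Sprague Dawley rats kept under basal conditions, 4 in each of 8 groups. The groups were wild-type (WT, Cbg+/+) and knockout (KO, Cbg-/-) females and males at 30 days of age and the same 4 groups at 60 days. The knockout was made with CRISPR/Cas9 in Serpina6, which encodes CBG, the plasma protein that carries corticosterone. How many founder lines the knockout rats came from is not stated in the sources used here. The labels name no infection and no treatment in any group.

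Interferons bind receptors on the cell surface and activate JAK kinases, which phosphorylate STAT proteins. A complex that holds STAT2 and IRF9 binds the interferon-stimulated response element (ISRE), while the gamma-activated site (GAS) serves the response to interferon-gamma. The genes behind these elements encode sensors of viral RNA, antiviral effectors, enzymes that attach or remove the ubiquitin-like protein ISG15, and the proteasome subunits and transporter that load class I molecules. IRF7 and IRF9 are themselves induced, so the pathway amplifies its own output. In liver, hepatocytes, Kupffer cells and endothelial cells all respond, and a whole-liver library mixes them, so that fewer cells of a type and less RNA per cell cannot be told apart.

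The promoter sequences of the members were read from RefSeq (GRCr8) windows of 250 bases before to 50 bases after each gene's start. The sequences shown are a selection of those that carry the letters these transcription factors recognise. Such a window was found for 26 of the 34 members. For the ISRE, the letters GAAA, any 2 bases and GAAA again were searched on both strands and stood in 16 of the 26 windows (61.5%) against 3.92% of all 33469 windows. The letters TTCNNNGAA, for the GAS, read the same on both strands and stood in 6 of the 26 (23.1%) against 8.87% of all. Of the members called between genotypes below, Rsad2 held the ISRE letters, Parp9 held neither set, and Rtp4 and Ifit2 had no window. The windows of Stat2, Psmb9, Mx1 and Trim25 held neither set of letters. The GAS letters overlap the ISRE letters in the window of Bst2, and copies of the ISRE letters overlap each other in Oas1a, Bst2 and Trim21. A match describes the letters only and is not evidence of binding. In the lines below capitals mark the match, each sequence reads 5′ to 3′ along the strand of the gene, and TTTC letters are the ISRE on the opposite strand.
Irf7, chr1:205800063-205800112, minus strand: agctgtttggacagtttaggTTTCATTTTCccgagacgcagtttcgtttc
Ifi27, chr6:128355208-128355257, plus strand: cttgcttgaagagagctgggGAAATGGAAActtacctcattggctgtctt
Ifit3, chr1:241527262-241527311, plus strand: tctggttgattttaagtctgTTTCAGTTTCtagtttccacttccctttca
Rsad2, chr6:48788238-48788287, minus strand: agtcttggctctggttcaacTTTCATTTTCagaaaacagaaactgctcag
Oas1a, chr12:41330405-41330454, plus strand: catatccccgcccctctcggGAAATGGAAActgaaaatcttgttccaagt
Bst2, chr16:18255069-18255118, minus strand: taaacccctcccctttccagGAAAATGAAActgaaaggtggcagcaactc
Tap1, chr20:4668635-4668684, minus strand: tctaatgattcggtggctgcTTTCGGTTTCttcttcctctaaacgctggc
Psmb8, chr20:4657016-4657045, minus strand: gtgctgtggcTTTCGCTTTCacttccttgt
Parp14, chr11:78408038-78408087, plus strand: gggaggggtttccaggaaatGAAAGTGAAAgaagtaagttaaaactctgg
Dtx3l, chr11:78320225-78320254, plus strand: cccgggaaacGAAACTGAAActttgcctct
Irf9, chr15:33065717-33065765, plus strand: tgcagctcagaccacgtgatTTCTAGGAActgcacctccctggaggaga
Irf1, chr10:38417773-38417821, plus strand: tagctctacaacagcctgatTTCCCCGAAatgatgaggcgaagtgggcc

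Irf7, Ifi27, Ifit3 and Oas1a are shown as genes that rose and fell together between animals, Rsad2 as a gene that differed by genotype, and Tap1, Psmb8, Bst2 and Irf1 as genes that differed by age or sex. The Dtx3l match lies after the gene's start. Dtx3l and its neighbour Parp9 lie on opposite strands and overlap, with 1214 bases between their starts in GRCr8. Tap1 and Psmb9 also lie on opposite strands, with 457 bases between their starts. Rsad2 and Cmpk2 start 14730 bases apart on opposite strands. Irf1 and Irf9 hold the GAS letters and not the ISRE letters in these windows, which says nothing about other positions.

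Libraries held between 12951969 and 21954929 reads on genes. Serpina6 stood at 25.5 to 131.0 CPM in KO and 421 to 1358 CPM in WT libraries (CPM, reads of a gene relative to all gene reads of its library, scaled between libraries), with no overlap between the genotypes. Markers of hepatocytes summed to 200258 to 293838 CPM over the 32 libraries. The interferon genes themselves were almost silent: 6 of 12 listed were in the table, Ifna1, Ifna2, Ifna4, Ifnb1 and Ifnk had 0 reads in all 32 libraries, Ifng had 6 reads in all and at most 1 in a library. A count of 0 allows up to 3 reads per library at this depth, which covers counting error only. In 1 library, replicate 1 of the 60-day KO females, the summed level of photoreceptor markers was 2278 CPM, while the remaining libraries had 3.43 to 12.2, so counts of called members in the genotype, age and sex comparisons of that group are given with and without it. Replicate 2 of the 30-day WT females and replicate 3 of the 30-day WT males were the lowest of their groups for most of the genes studied here, as described below. Differences below are log2 fold changes ± SE. They were tested with edgeR's quasi-likelihood method, p-values were adjusted over the 11002 genes after Benjamini and Hochberg, and a gene was called at an adjusted p below 0.05.

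The interferon-stimulated genes moved together from animal to animal. After subtraction of each group's mean, the 561 pairs of members had a median Pearson r of 0.50 over the 32 libraries, and 51.0% of pairs exceeded 0.5. Over all pairs of the 11002 genes tested the median was -0.0021 and 2.50% exceeded 0.5. These correlations are descriptions, since the points share libraries and their depth. Much of the shared movement came through the pair of low 30-day WT libraries: over the other 30 libraries, a selection chosen after seeing the data, the median r of the members was 0.29 and 23.5% of pairs exceeded 0.5, against -0.0017 and 2.76% over all genes. The median SD within groups was 0.31 log2 units for members against 0.19 for all genes tested, and 0.24 against 0.19 without those libraries.

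The tightest pairs were Rtp4, a chaperone of membrane receptors, with Ifi27, a small mitochondrial protein (r = 0.95), and the transcription factor gene Irf7 with the antiviral GTPase gene Mx2 (r = 0.95). Irf7 with Usp18, the protease that removes ISG15, followed at r = 0.95, and Irf9 with Lgals3bp, a secreted glycoprotein, at r = 0.94. The immunoproteasome genes Psmb8 and Psmb9 reached r = 0.88. Without the low 30-day WT libraries these 5 pairs had r = 0.69, 0.88, 0.86, 0.84 and 0.85 in the same order. Not all members took part: the median r with the other members was -0.10 for Trim25, a ubiquitin ligase that activates RIG-I, 0.15 for Ifi35, 0.21 for Stat2, 0.23 for Trim21 and 0.25 for Parp14. The SD within groups was 0.78 for Usp18 and Mx1, 0.76 for Ifi27, 0.75 for Oasl and 0.74 for Oas1a, and 0.12 for Stat2, on the log2 scale. Without the low libraries it was 0.44, 0.41, 0.29, 0.61, 0.56 and 0.12 in that order of genes.

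The mean log2 CPM of the 34 genes in a library summarises this shared movement. At 30 days it was 4.06 ± 0.458 in WT females, 4.58 ± 0.120 in KO females, 4.09 ± 0.594 in WT males and 4.38 ± 0.204 in KO males (SD, n = 4). At 60 days it was 4.48 ± 0.137, 4.78 ± 0.212, 4.63 ± 0.224 and 4.68 ± 0.118 in the same order. KO means lay above WT means in each of the 4 pairs, and the ranges of the groups overlapped in each pair. The widest groups were the 2 groups of 30-day WT animals, each through 1 low library. Without it the WT mean was 4.27 ± 0.224 in 30-day females and 4.38 ± 0.137 in 30-day males (SD, n = 3). The KO mean then lay above the WT mean by 0.32 in females in place of 0.53, and by 0.0022 in males in place of 0.29. Only WT libraries were left out here: the lowest library of the 30-day KO males, at 4.09 with 4.40 to 4.55 in the others, stayed in the KO mean.

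**Figure D1:**
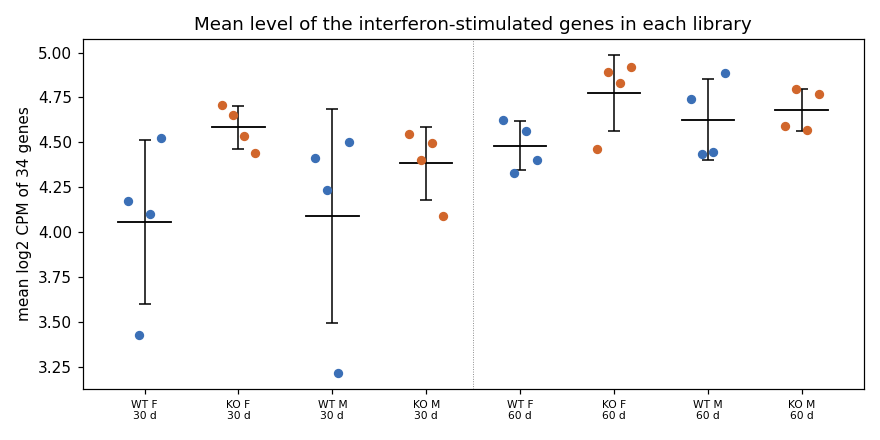
Mean log2 CPM of the 34 interferon-stimulated genes in each of the 32 libraries (vertical axis, log2 units) by group (horizontal axis, genotype, sex and age); WT in blue, KO in orange, bars give the group mean and SD. The lowest libraries are 1 of the 30-day WT males at 3.21 and 1 of the 30-day WT females at 3.43, while the other libraries lie between 4.09 and 4.92.

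Replicate 2 of the 30-day WT females was the lowest of its group for 30 of the 34 members. Its median distance from the mean of the other 3 libraries was -0.60 log2 units, 11 members were more than 2-fold lower, and the largest distance was that of Usp18 at -2.49. Replicate 3 of the 30-day WT males was also the lowest for 30 of 34, with a median distance of -1.02, 18 members more than 2-fold lower, and -3.26 for Ifi27. Of all genes tested, 23.5% and 30.9% were the lowest of their group in these libraries, and the median distance over all genes was -0.00031 and 0.0083. Markers of Kupffer cells, 13 of 14 listed being in the table and none of them at 0 reads over the series, reached 696 CPM in the first library and 884 to 967 CPM in the rest of its group. In the second they reached 452 CPM, with 782 to 1050.4 CPM in the rest of its group. T cell markers reached 11.4 CPM in the second and 17.3 to 26.5 CPM in the rest of its group. That library also had the least of its group for markers of NK cells (2.20 CPM, with 4.76 to 9.09 in the rest), B cells (1.72, with 2.96 to 3.99), neutrophils (0.484, with 0.952 to 4.28), dendritic cells (6.42, with 10.4 to 12.0) and endothelium (295, with 365 to 447). In the first library NK cell markers were at 4.29 CPM, with 5.75 to 7.45 in the rest of its group. Markers of T cells, B cells, neutrophils, dendritic cells and endothelium in the first library lay within the range of the rest of its group. The part of these markers in the low levels was not tested. Replicate 4 of the 30-day KO males was lowest for 28 members and replicate 1 of the 60-day KO females for 25, while replicate 4 of the 30-day WT females was highest for 26.

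**Figure D2:**
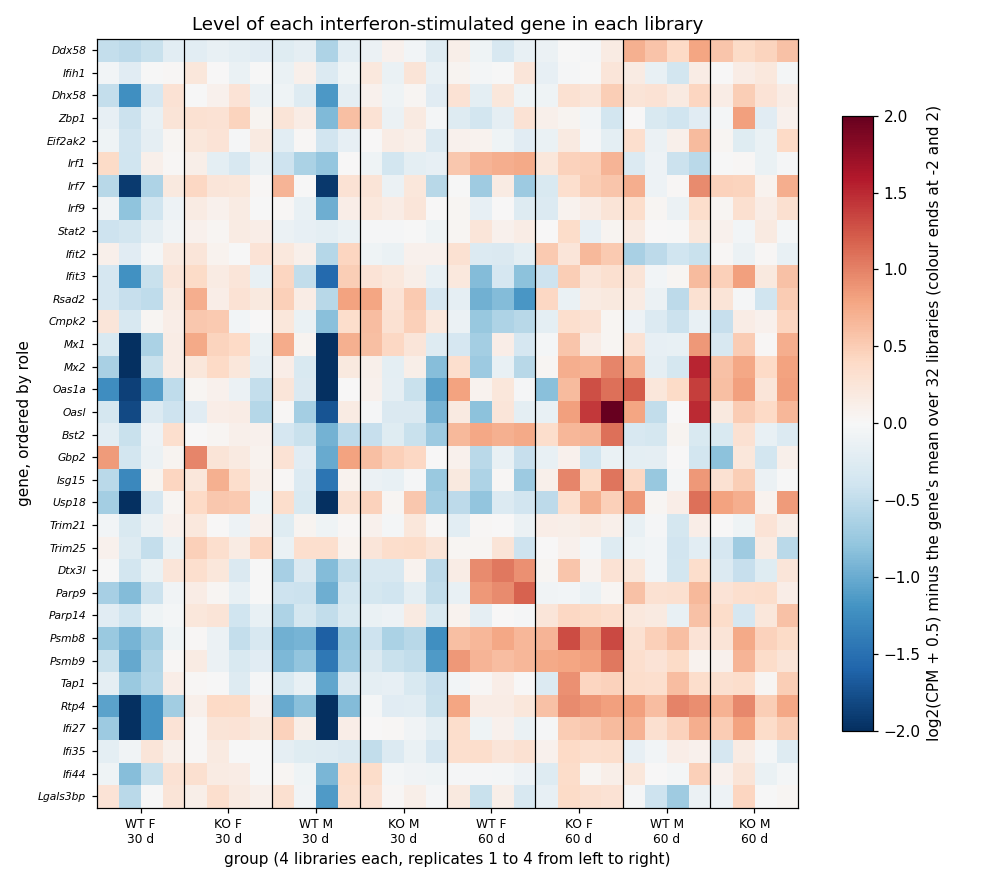
Level of each of the 34 members (rows, ordered by role) in each of the 32 libraries (columns, 4 per group), as log2(CPM + 0.5) minus the gene's mean over all libraries, with colours that end at -2 and 2. The 2 dark blue columns are the low 30-day WT libraries, in which Irf7, Mx1, Mx2, Oas1a, Oasl, Usp18, Rtp4 and Ifi27 all lie far below their means.

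In 30-day females 1 of 34 interferon-stimulated genes rose in KO against WT rats, and 0 once the low WT library was left out. The change was positive for 33 of 34 members, with a median of 0.38 log2 units, against 5809 of 11002 genes and a median of 0.010 over all genes tested. Members moved together between animals, so the signs counted here and in the comparisons below are not independent of each other. Rtp4 rose by 1.5 ± 0.30 log2 units (adjusted p = 0.0260), 2.83-fold, and was the 1 member called, with 0.300% of all genes called in this comparison. At an unadjusted p below 0.05 there were 11 members, all of them higher in KO, where 10.7% of all genes had such a p and 5.15% were higher with it. Groups did not overlap, with KO higher, for Rtp4, Stat2, Trim25, Irf9 and Oas1a, 5 of 34 members, against 3.70% of all genes. Kupffer cell markers summed to 696 to 967 CPM in WT and 863 to 1094 CPM in KO females, with 11 of 13 positive and a median change of 0.11, and T cell markers to 18.6 to 24.3 and 23.8 to 30.1 CPM, with 4 of 5 positive. Changes were also positive for 5 of 5 NK cell markers (median 0.26), 4 of 4 of B cells (0.40), 2 of 2 of neutrophils (0.35) and 6 of 6 of erythroid cells (0.42), and for 3 of 6 of dendritic cells and 4 of 8 of endothelium. Hepatocyte markers went the other way, with 1 of 7 positive, a median of -0.17 and summed levels of 228210.0 to 251072 CPM in WT and 200258 to 227264 CPM in KO females. None of these markers was called by edgeR, and their part in the result was not tested. Without replicate 2 of the WT females 32 members were positive with a median of 0.25, and no member was called (Rtp4 1.25, adjusted p = 0.0852). The titles of the 30-day samples carry a number, 1 or 2, whose meaning is not given, and it nearly coincides with genotype here: 3 of 4 WT females have 1 and 4 of 4 KO females have 2. With that number as a covariate in the 16 libraries of 30-day animals no member was called in females (Rtp4 1.21, adjusted p = 0.295), and the number and genotype can hardly be told apart.

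By role, the 5 RNA sensors changed by 0.089 to 0.63 from WT to KO. The 10 antiviral effectors changed by 0.14 to 1.21, led by Oas1a, an oligoadenylate synthase that activates RNA decay (1.21 ± 0.49, adjusted p = 0.345). Of the 4 transcription factor genes Irf1 alone was negative (-0.18 ± 0.14). The 3 class I processing genes Psmb8, Psmb9 and Tap1 changed by 0.24 to 0.37. Trim25 stood at 48.7, 38.5, 33.1 and 42.0 CPM in WT and 64.4, 58.5, 51.6 and 62.1 CPM in KO females (0.54 ± 0.15, adjusted p = 0.121). Every KO library was higher than every WT library for it, although it was the member least correlated with the others.

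In 30-day males 0 of 34 members were called by edgeR (0.0545% of all genes) and 0 by DESeq2, with 6 members at an unadjusted p below 0.05 (5.94% of all genes). The change was positive for 29 members with a median of 0.15, and for 18 with a median of 0.035 once replicate 3 of the WT males was left out. Rtp4 was again the member with the smallest p (1.01 ± 0.30, adjusted p = 0.385). Rtp4 and Stat2 did not overlap between the male groups, with KO higher, 2 of 34 members against 2.94% of all genes in that direction. The difference between the sexes in the response to the knockout was called for 0 of 34 members at 30 days (0% of all genes; 0 at an unadjusted p below 0.05, with 5.51% of all genes, and 0 by DESeq2).

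In 60-day females some members were higher and some lower in KO than in WT rats. Of 34 members 2 rose and 1 fell (6.77% of all genes called, 3.48% higher and 3.29% lower): Ifit2, an RNA-binding antiviral protein (0.59 ± 0.15, adjusted p = 0.0136), Rsad2, the radical-SAM enzyme viperin (1.03 ± 0.31, adjusted p = 0.0395), and Parp9, the partner of the ubiquitin ligase Dtx3l (-0.85 ± 0.18, adjusted p = 0.00515). That share, 3 of 34, is near the share of all genes. The change was positive for 27 members with a median of 0.26, and for 25 under another scaling, no filter, DESeq2 or the deposited log2 values. Groups did not overlap, with KO higher, for Rsad2, Parp14 and Trim21, 3 of 34 members, against 4.48% of all genes in that direction. All 10 antiviral effectors were positive, from 0.0012 to 1.46, among them Oasl (1.46 ± 0.48, adjusted p = 0.0650) and Cmpk2, the nucleotide kinase next to Rsad2 (0.71 ± 0.24, adjusted p = 0.0734). Markers of dendritic cells, 6 of 8 listed in the table, summed to 5.92 to 8.92 CPM in WT and 9.43 to 11.9 CPM in KO females. All 6 were positive, none was at 0 reads over the series, Siglech and Itgax had no entry, and their part in the result was not tested. Kupffer cell markers summed to 870.4 to 1358 CPM in WT and 768 to 1063 CPM in KO females, with 3 of 13 positive and a median of -0.17. Changes were also positive for 2 of 2 neutrophil markers (median 1.2, summed levels 1.21 to 2.13 CPM in WT and 2.00 to 4.95 CPM in KO), 6 of 6 erythroid markers (0.60), 3 of 4 of B cells (0.65), 6 of 8 of endothelium (0.20), 3 of 5 of T cells, 3 of 5 of NK cells and 3 of 7 of hepatocytes. By edgeR 1 hepatocyte marker was called lower and 5 of 5 tested photoreceptor markers higher, and the part of these lists was not tested. Without the photoreceptor-marked KO library 29 members were positive with a median of 0.35, and Ifit2 (0.58 ± 0.16, adjusted p = 0.0383), Parp9 (-0.85 ± 0.20, adjusted p = 0.0183) and Oasl (1.74 ± 0.46, adjusted p = 0.0340) were called, while Rsad2 was not (0.93 ± 0.33, adjusted p = 0.117).

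In 60-day males 0 of 34 members were called by edgeR (0.209% of all genes) and 0 by DESeq2, with 2 at an unadjusted p below 0.05 against 10.8% of all genes, Ifit2 (0.46 ± 0.15, adjusted p = 0.216) and Irf1 (0.30 ± 0.15, adjusted p = 0.463). The change was positive for 18 of 34 with a median of 0.015. Ifit2 alone did not overlap between the groups with KO higher, 1 of 34 members against 2.21% of all genes in that direction. The sex-by-genotype interaction at 60 days was called for 0 members (0.136% of all genes), with 4 at an unadjusted p below 0.05 (10.6% of all genes) and 0 by DESeq2. Their values were 0.65 ± 0.26 for Parp9, 0.51 ± 0.20 for Irf1, -1.66 ± 0.67 for Oasl and -0.89 ± 0.42 for Rsad2, as the male change minus the female change.

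**Figure D3:**
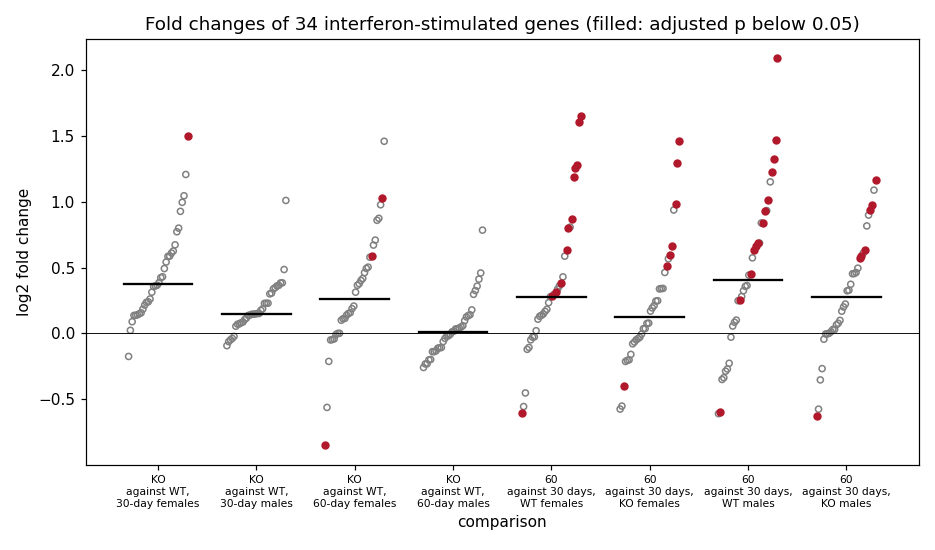
Log2 fold changes (vertical axis) of the 34 members in 8 comparisons (horizontal axis), KO against WT on the left and 60 against 30 days on the right, 1 point per gene in order of size, with the median as a bar. Filled points were called by edgeR at an adjusted p below 0.05: 1, 0, 3 and 0 members for genotype, and 2 of 34, Psmb8 and Psmb9, in all 4 age comparisons.

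At 30 days Rtp4 stood at 14.6, 5.60, 13.5 and 19.1 CPM in WT females, 33.7, 41.2, 41.1 and 33.3 in KO females, 15.4, 17.3, 3.78 and 17.0 in WT males and 30.4, 26.8, 27.0 and 22.8 in KO males. At 60 days it stood at 54.4, 34.8, 34.8 and 36.8 CPM in WT females, 47.2, 60.7, 57.8 and 55.5 in KO females, 55.9, 48.1, 62.4 and 60.2 in WT males and 51.1, 61.3, 44.1 and 53.9 in KO males. At 30 days each KO group lay wholly above the WT group of its sex, and at 60 days the genotypes overlapped in both sexes, in females through replicate 1 of the WT group. The change at 60 days minus that at 30 days was -1.04 ± 0.41 in females and -1.12 ± 0.41 in males, neither called (adjusted p = 0.168 and 0.806). With each library left out in turn, Rtp4 kept its call in 30-day females only without replicate 4 of the WT group (adjusted p = 0.0156), and in the other 7 fits the adjusted p ran from 0.0541 to 0.0993. In GRCr8 Rtp4 overlaps Masp1, a gene of the complement lectin pathway, and the strand setting of the authors' counting is not given. Masp1 changed by -0.036 ± 0.081 in 30-day females (adjusted p = 0.923) and by -0.39 ± 0.082 in 60-day females (adjusted p = 0.00402).

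At 30 days Ifit2 stood at 34.8, 27.4, 31.4 and 36.8 CPM in WT females, 38.4, 34.1, 32.2 and 39.3 in KO females, 37.4, 34.7, 21.6 and 43.7 in WT males and 30.4, 29.5, 34.4 and 34.4 in KO males. Its 60-day values were 40.2, 26.6, 26.5 and 28.1 CPM in WT females, 46.6, 38.2, 50.9 and 46.9 in KO females, 20.4, 22.4, 24.4 and 23.5 in WT males and 33, 29.9, 32.9 and 29 in KO males. In 60-day females 3 WT libraries lay at 26.5 to 28.1 CPM and replicate 1 at 40.2 CPM, within the KO range, and in 60-day males the KO group lay wholly above WT. The call in 60-day females was lost without replicate 2, 3 or 4 of the WT group (adjusted p = 0.0587, 0.0524 and 0.0519). Reads of Ifit2 and its neighbour Ifit3 could be split by the authors' counting.

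At 30 days Rsad2 stood at 4.20, 3.82, 3.65 and 6.14 CPM in WT females, 9.35, 5.99, 6.76 and 6.31 in KO females, 7.76, 6.08, 3.52 and 9.87 in WT males and 9.70, 6.69, 7.99 and 4.20 in KO males. The 60-day animals had 4.73, 2.55, 2.74 and 2.15 CPM in WT females, 7.42, 4.90, 6.15 and 6.28 in KO females, 6.17, 4.98, 3.62 and 6.83 in WT males and 6.55, 5.32, 3.99 and 7.94 in KO males. In 60-day females every KO library lay above every WT library, the highest WT value being replicate 1. No such gap was present in the other pairs. The call was lost in 6 of 8 fits with a library left out, those without WT replicates 2, 3 and 4 (adjusted p = 0.116, 0.0958 and 0.129) and without KO replicates 1, 3 and 4 (adjusted p = 0.117, 0.0633 and 0.0660).

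At 30 days Parp9 stood at 43.5, 37.6, 51.2 and 65.7 CPM in WT females, 76.8, 71.0, 62.0 and 68.8 in KO females, 51.5, 50.9, 34.8 and 53.3 in WT males and 54.1, 52.0, 60.2 and 48.8 in KO males. In the older animals it reached 62.5, 127, 134 and 158 CPM in WT females, 65.7, 66.4, 63.2 and 71.1 in KO females, 103, 85.7, 86.4 and 109 in WT males and 83.6, 87.2, 87.8 and 75.3 in KO males. At 60 days Parp9 was higher in WT than in KO females, through 3 WT libraries at 127 to 158 CPM, while replicate 1 at 62.5 CPM lay below every KO library. At 30 days the change had the other sign (0.49 ± 0.18, adjusted p = 0.292). The age-by-genotype interaction in females was -1.34 ± 0.26 (adjusted p = 0.00502), the 1 member called of 34 with 2.96% of all genes called. It kept its call in each of 16 fits with a library left out (-1.56 to -1.19). The interaction includes the 30-day females, in which the title number nearly coincides with genotype. It was not fitted with that number as a covariate, and the fits with a library left out do not separate the 2. In males the same interaction was -0.38 ± 0.26 (adjusted p = 0.985), and 0 of 34 members were called there (0.00909% of all genes; 4 at an unadjusted p below 0.05, with 5.34% of all genes, and 0 by DESeq2).

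Dtx3l, whose protein works in a complex with that of Parp9 and whose gene overlaps it in GRCr8, had the same shape. It stood at 29.5, 51.4, 55.7 and 50.4 CPM in 60-day WT females and 27.3, 39.1, 27.9 and 32.4 CPM in KO females (-0.56 ± 0.20, adjusted p = 0.0832), the lowest WT value again being replicate 1. Without that library the count of called members in 60-day females was 5 and included Dtx3l and Cmpk2. Parp14, a neighbour of Dtx3l, had a positive change (0.38 ± 0.16, adjusted p = 0.155). Since the strand of counting is not given, reads from the overlapping stretch of Parp9 and Dtx3l cannot be told apart.

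**Figure D4:**
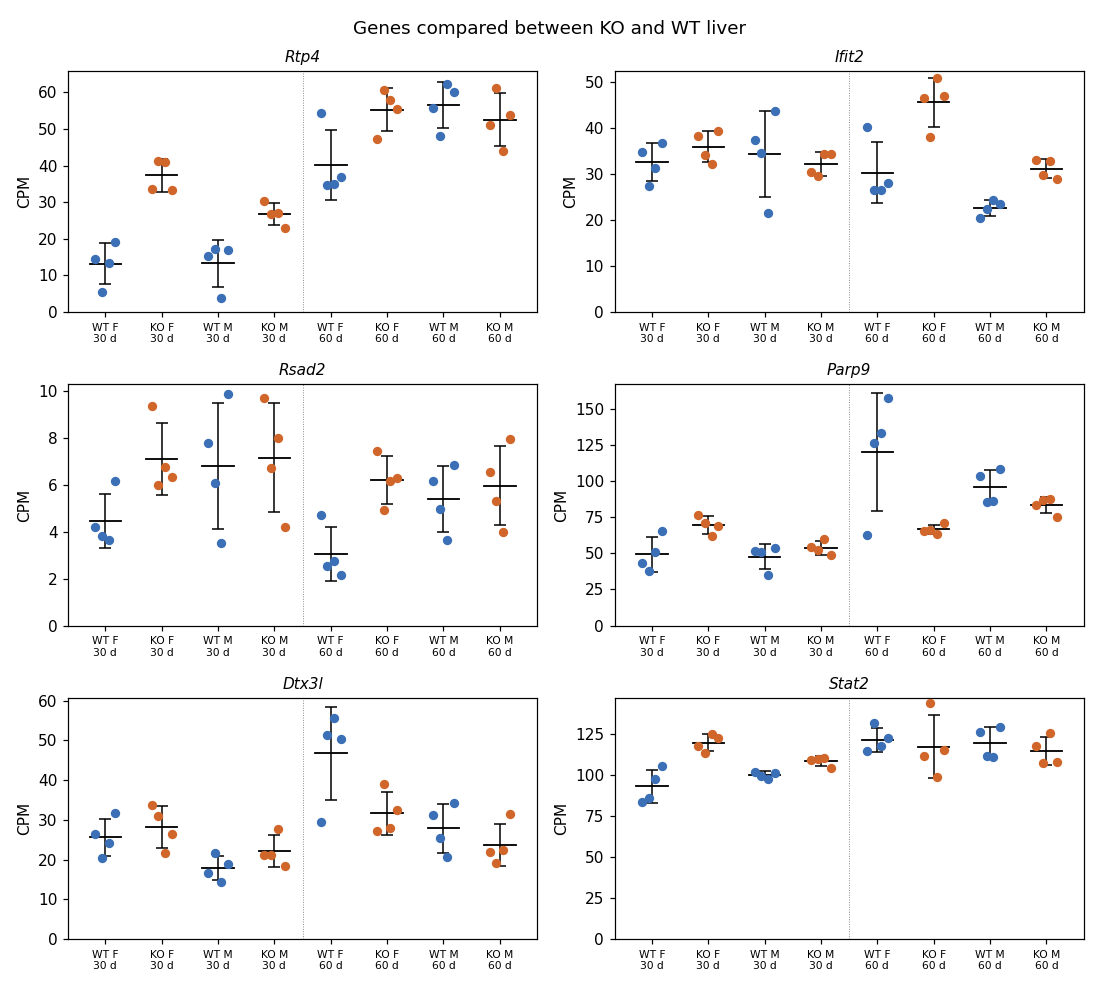
CPM (vertical axes, from 0) of 6 genes in each of the 32 libraries by group (horizontal axes); WT in blue, KO in orange, bars give the mean and SD of 4 libraries. Rtp4 and Stat2 are higher in both 30-day KO groups, Ifit2 in both 60-day KO groups and Rsad2 in 60-day KO females. Parp9 and Dtx3l are high in 3 of 4 60-day WT females.

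Among the transcription factors, Stat2, a signal transducer of the type I response, varied least. At 30 days Stat2 stood at 83.5, 86.2, 97.4 and 105 CPM in WT females, 118, 113, 125 and 122 in KO females, 102, 99.0, 97.3 and 101 in WT males and 109, 109.7, 111 and 104 in KO males. At 60 days it stood at 114, 131, 117 and 122 CPM in WT females, 111, 144, 98.6 and 115 in KO females, 126, 112, 111 and 129 in WT males and 117, 107, 125 and 108 in KO males. In 30-day animals each KO group lay above its WT group. The log2 change was 0.36 ± 0.086 in 30-day females, 0.12 ± 0.085 in 30-day males, -0.050 ± 0.086 in 60-day females and -0.062 ± 0.086 in 60-day males (adjusted p = 0.0575, 0.923, 0.798 and 0.853 in that order). The age-by-genotype interaction in females was -0.41 ± 0.12 (adjusted p = 0.0580). By DESeq2 both the 30-day female change and that interaction were called.

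Irf7, the factor that amplifies interferon production, had r = 0.95 with Mx2 and with Usp18 across libraries. At 30 days Irf7 stood at 14.8, 5.50, 14.2 and 25.5 CPM in WT females, 29.7, 26.3, 25.8 and 22.5 in KO females, 35.8, 22, 5.45 and 27.2 in WT males and 26.5, 20.3, 26.1 and 14.9 in KO males. Its 60-day values were 22.1, 13.4, 24.9 and 13.2 CPM in WT females, 17.8, 28.1, 31.4 and 32.6 in KO females, 37, 20.6, 22.6 and 42.8 in WT males and 30.7, 30.3, 23.1 and 36.9 in KO males. The low WT library of each sex stood at about 5.5 CPM, and the other libraries of both genotypes overlapped. The log2 change was 0.80 ± 0.40 in 30-day females, -0.038 ± 0.39 in 30-day males, 0.58 ± 0.40 in 60-day females and -0.018 ± 0.40 in 60-day males (adjusted p = 0.482, 0.999, 0.448 and 0.996 in that order). Irf9, the DNA-binding partner of STAT2, moved over a narrower range. At 30 days Irf9 stood at 17.5, 10.4, 13.9 and 17.1 CPM in WT females, 20.7, 19.6, 20.7 and 18.3 in KO females, 18.8, 16.4, 9.06 and 20.3 in WT males and 21.3, 20.5, 21.8 and 18.4 in KO males. The 60-day animals had 19.0, 16.3, 18.6 and 15.4 CPM in WT females, 15.1, 19.4, 20.5 and 22.1 in KO females, 23.5, 18.9, 17.0 and 23.7 in WT males and 18.9, 23.1, 20.5 and 23.2 in KO males. In 30-day females the KO libraries lay above all WT libraries, and in males they did not. The log2 change was 0.43 ± 0.17 in 30-day females, 0.35 ± 0.17 in 30-day males, 0.16 ± 0.17 in 60-day females and 0.049 ± 0.17 in 60-day males (adjusted p = 0.332, 0.83, 0.662 and 0.958 in that order).

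Isg15 encodes the ubiquitin-like modifier itself. At 30 days Isg15 stood at 4.20, 2.30, 6.61 and 8.66 CPM in WT females, 7.48, 10.7, 8.18 and 6.85 in KO females, 6.40, 5.13, 1.98 and 6.69 in WT males and 5.80, 5.65, 6.19 and 3.56 in KO males. In the older animals it reached 7.32, 3.97, 6.45 and 3.61 CPM in WT females, 6.82, 12.9, 8.42 and 13.8 in KO females, 8.56, 3.55, 6.17 and 11.9 in WT males and 7.90, 9.09, 5.80 and 6.31 in KO males. The genotypes overlapped in each pair, and the 2 highest values were those of 60-day KO females. The log2 change was 0.61 ± 0.36 in 30-day females, 0.082 ± 0.37 in 30-day males, 0.98 ± 0.37 in 60-day females and -0.038 ± 0.37 in 60-day males (adjusted p = 0.571, 0.998, 0.119 and 0.988 in that order). Usp18 encodes the protease that takes ISG15 off its targets and damps signalling at the receptor. At 30 days Usp18 stood at 4.49, 0.942, 5.80 and 7.66 CPM in WT females, 10.0, 11.0, 11.0 and 7.01 in KO females, 9.70, 5.92, 1.14 and 9.35 in WT males and 10.5, 7.73, 11.1 and 4.49 in KO males. At 60 days it stood at 5.04, 4.10, 6.06 and 5.61 CPM in WT females, 5.02, 9.54, 12.5 and 10.6 in KO females, 14.1, 7.72, 8.26 and 16.6 in WT males and 13.3, 12.6, 7.90 and 13.9 in KO males. The low WT libraries of the 30-day animals held 0.942 and 1.14 CPM, below every other library. The log2 change was 1.05 ± 0.46 in 30-day females, 0.38 ± 0.45 in 30-day males, 0.86 ± 0.48 in 60-day females and 0.041 ± 0.45 in 60-day males (adjusted p = 0.410, 0.967, 0.315 and 0.989 in that order).

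Mx1 encodes an antiviral GTPase whose reads could be split with those of the related Mx2. At 30 days Mx1 stood at 5.76, 1.10, 4.45 and 8.03 CPM in WT females, 12.5, 9.97, 9.61 and 6.52 in KO females, 12.3, 7.46, 1.19 and 12.1 in WT males and 11.2, 9.75, 8.57 and 5.91 in KO males. Its 60-day values were 5.59, 4.30, 7.94 and 5.61 CPM in WT females, 6.97, 10.8, 8.06 and 7.42 in KO females, 8.89, 6.35, 6.42 and 13.5 in WT males and 5.68, 10.4, 7.34 and 12.3 in KO males. Its range spanned from 1.10 CPM in a 30-day WT female to 13.5 CPM in a 60-day WT male, and neither extreme was a KO library. The log2 change was 1.00 ± 0.46 in 30-day females, 0.11 ± 0.45 in 30-day males, 0.50 ± 0.48 in 60-day females and 0.035 ± 0.46 in 60-day males (adjusted p = 0.436, 0.998, 0.600 and 0.992 in that order). For these 6 genes no genotype change was called by edgeR.

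The remaining members were called between genotypes in none of the 4 comparisons by edgeR. Mx2 ranged over 5.85 to 87.0 CPM in the 32 libraries, Ifi27 over 39.8 to 569 CPM and Ifit3, which binds viral RNA with its relatives, over 1.06 to 7.54 CPM. Between genotypes Mx2 changed by 0.77 ± 0.45 in 30-day and 0.88 ± 0.45 in 60-day females (adjusted p = 0.566 and 0.280), and Ifi27 by 0.93 ± 0.46 and 0.37 ± 0.45 (adjusted p = 0.474 and 0.702). The sensor Ifih1, or MDA5, which recognises long double-stranded RNA, moved little, over 27.0 to 41.9 CPM, with 0.089 ± 0.12 and -0.046 ± 0.12 in the same comparisons. Zbp1, a sensor of Z-form nucleic acid, had few reads, over 0.132 to 1.55 CPM. Trim21, an antibody receptor and ubiquitin ligase, stayed within 9.79 to 15.5 CPM, Ifi44 within 7.61 to 20.8 CPM, Gbp2, a GTPase that attacks the vacuoles of intracellular microbes, within 5.72 to 24 CPM and Lgals3bp within 13.5 to 40.7 CPM. In all, 14 members were called by edgeR in none of the 16 comparisons of genotype, age, sex and their interactions. They were Mx2, Ifi27, Ifit3, Ifih1, Zbp1, Trim21, Ifi44, Gbp2, Lgals3bp, Irf7, Irf9, Isg15, Usp18 and Mx1.

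Between the ages more members were called than between the genotypes, as were more of all genes: 3643, 3466, 2498 and 3127 of the 11002 genes for age in WT females, WT males, KO females and KO males, and 33, 6, 745 and 23 for genotype in 30-day females, 30-day males, 60-day females and 60-day males. Between 30 and 60 days 11 rose and 1 fell in WT females (16.0% and 17.1% of all genes), 12 rose and 1 fell in WT males (15.7% and 15.8%). In KO animals 6 rose and 1 fell in females (10.6% and 12.1%), and 6 rose and 1 fell in males (14.0% and 14.5%). With all libraries, the counts that rose are above the share of all genes in WT animals and nearer to it in KO animals. The counts that fell are below it in each group. In both directions together 12, 13, 7 and 7 of 34 members were called, against 33.1%, 31.5%, 22.7% and 28.4% of all genes. Without the photoreceptor-marked library 8 members rose and 0 fell in KO females. The median change was 0.28, 0.40, 0.12 and 0.27 in the same order, against 0.011, -0.0088, -0.0038 and -0.014 over all genes tested. In all, 19 members were called in at least 1 of the 4 comparisons, 16 of them higher and 3 lower, and 16 had a positive change in all 4. On the deposited log2 values, which are scaled to each library's total reads and carry no further scaling between libraries, the median of all genes shifted to -0.12, -0.17, -0.16 and -0.21. The members then had medians of 0.23, 0.37, -0.025 and 0.053, with 9 higher and 1 lower, 9 and 2, 4 and 1, and 3 and 2 called. Under median-of-ratios scaling 6 rose and 0 fell in KO females. These comparisons share the 30-day WT libraries with the 30-day comparisons of genotype. The labels give no day of collection or of sequencing. Libraries of 30-day rats held 16806943 to 21954929 gene reads and those of 60-day rats 12951969 to 17133332, and the form of the sample titles differs between the ages. Age coincides with these differences between the libraries, and their part in the age changes was not tested.

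The class I processing genes rose with age. Psmb8 and Psmb9 encode the inducible proteasome subunits that cut peptides for class I molecules, and Tap1 a subunit of the transporter that carries them into the endoplasmic reticulum. At 30 days Psmb8 stood at 33.1, 28.8, 34.3 and 52.6 CPM in WT females, 56.4, 51.3, 39.8 and 44.4 in KO females, 28.3, 29.1, 17.6 and 32.6 in WT males and 41.4, 35.8, 37.7 and 23.5 in KO males. The 60-day animals had 84.6, 88.3, 94.9 and 88.7 CPM in WT females, 89.4, 139, 104 and 139 in KO females, 69.1, 77.3, 84.6 and 67.2 in WT males and 66.9, 94.8, 76.5 and 72.5 in KO males. No 60-day library overlapped the 30-day range of its sex and genotype. Psmb8 rose by 1.26 ± 0.19 in WT females, 1.30 ± 0.19 in KO females, 1.47 ± 0.19 in WT males and 1.17 ± 0.19 in KO males (adjusted p = 7.72e-06, 8.98e-06, 1.09e-06 and 3.02e-05), and 3 of 3 genes of this role were called in WT males, KO females and KO males.

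At 30 days Psmb9 stood at 26.3, 17.6, 23.7 and 37 CPM in WT females, 40.6, 33.4, 29.2 and 30.7 in KO females, 19.2, 20.8, 13.2 and 21.8 in WT males and 29.5, 26.5, 25.5 and 16.3 in KO males. In the older animals it reached 66.8, 58.4, 55.8 and 57.4 CPM in WT females, 61.3, 63.1, 64.4 and 76.0 in KO females, 45.8, 43.9, 47.2 and 38.0 in WT males and 38.5, 58.5, 47.1 and 43.2 in KO males. The 60-day libraries of Psmb9 again lay wholly above the 30-day libraries of the same sex and genotype. It rose by 1.19 ± 0.18 in WT females, 0.98 ± 0.18 in KO females, 1.23 ± 0.18 in WT males and 0.94 ± 0.18 in KO males (adjusted p = 9.07e-06, 0.000163, 8.94e-06 and 0.000255). Tap1 rose in WT males (0.84 ± 0.19, adjusted p = 0.00124), KO females (0.51 ± 0.19, adjusted p = 0.0499, and 0.69 ± 0.17, adjusted p = 0.00478 without the photoreceptor-marked library) and KO males (0.59 ± 0.19, adjusted p = 0.0209), and its change in WT females was 0.34 ± 0.19 (adjusted p = 0.183).

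Rtp4 and Parp9 rose with age in WT females (1.61 ± 0.30 and 1.28 ± 0.18, adjusted p = 0.000154 and 3.59e-06), WT males (2.09 ± 0.30 and 1.01 ± 0.18, adjusted p = 6.23e-06 and 0.000101) and KO males (0.97 ± 0.29 and 0.64 ± 0.18, adjusted p = 0.0120 and 0.00929). In KO females their changes were 0.57 ± 0.28 and -0.065 ± 0.18 (adjusted p = 0.162 and 0.844). Masp1, which overlaps Rtp4, changed with age by 0.35 ± 0.082 in WT females and 0.39 ± 0.082 in WT males (adjusted p = 0.00123 and 0.000414). Trim25 fell in KO females (-0.40 ± 0.15, adjusted p = 0.0489, and not called without the photoreceptor-marked library, at -0.42 ± 0.16, adjusted p = 0.0697) and KO males (-0.63 ± 0.15, adjusted p = 0.00194), Cmpk2 in WT females (-0.61 ± 0.24, adjusted p = 0.0496) and Ifit2 in WT males (-0.60 ± 0.15, adjusted p = 0.00266). Oasl rose in KO females (1.46 ± 0.47, adjusted p = 0.0235, and 1.74 ± 0.45, adjusted p = 0.00654 without that library). Without it Oas1a and Ifi35 were called higher in KO females as well. Dtx3l, Stat2 and Oas1a were called higher in both WT comparisons, by 0.87, 0.38 and 1.65 in females and 0.64, 0.26 and 1.33 in males. Dhx58, a relative of RIG-I without signalling domains, Eif2ak2, the kinase PKR that halts translation, and Parp14 rose in WT males alone among the 4 comparisons, by 0.68, 0.45 and 0.67, and Ifi35 in WT females by 0.28. Age by genotype interactions were called for Parp9 in females and for no other member, and age by sex was not tested.

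The counts were also taken without the low 30-day WT libraries. Without replicate 2 of the WT females 9 members rose and 1 fell, with a median of 0.091. Without replicate 3 of the WT males 7 rose and 3 fell, with a median of 0.25. Kupffer cell markers also moved: 5 of 13 rose and 1 fell with age in WT females and 0 rose and 1 fell in WT males, with summed levels of 696 to 967 CPM at 30 days and 870.4 to 1358 CPM at 60 days in WT females and 452 to 1050.4 and 667 to 789 CPM in WT males. In WT females 5 of 5 T cell, 5 of 5 NK cell and 4 of 4 B cell markers were positive with age, 2, 1 and 1 of them called higher, and NK cell markers summed to 4.29 to 7.45 CPM at 30 days and 9.45 to 12.3 CPM at 60 days, while 3 of 8 endothelial and 2 of 6 dendritic cell markers fell. In WT males 5 of 8 endothelial markers fell, 1 T cell marker rose and 5 of 5 NK cell markers were positive. In KO females 2 B cell markers, 1 T cell marker and 5 of 5 photoreceptor markers rose, and 2 Kupffer cell, 1 endothelial and 1 dendritic cell marker fell. In KO males 2 T cell markers, 1 NK cell, 1 Kupffer cell and 1 dendritic cell marker rose, and 2 Kupffer cell and 2 endothelial markers fell. Among 7 hepatocyte markers 1 rose and 2 fell in WT females, 3 and 1 in WT males, 2 and 3 in KO females and 3 and 1 in KO males. The part of these markers in the age changes was not tested.

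Sex differences among the members were called mostly at 60 days. At 30 days 0 of 34 were called in WT (2.07% of all genes; 8 at an unadjusted p below 0.05, with 12.9% of all genes, and 1, Irf1, by DESeq2) and 1 in KO animals (2.24%), Ifi35, which was lower in males (-0.36 ± 0.10, adjusted p = 0.0474). In 30-day KO animals the title number nearly coincides with sex: 4 of 4 females have 2 and 3 of 4 males have 1. No sex comparison was fitted with that number as a covariate, so the number and sex can hardly be told apart there. At 60 days 2 were higher and 5 lower in WT males (13.7% and 12.7% of all genes), and 1 higher and 5 lower in KO males (9.63% and 8.89%). The counts of higher members are below the share of all genes, and those of lower members somewhat above it. Without the photoreceptor-marked library the same 6 members were called in KO animals, 1 higher and 5 lower. Whether the sex difference itself changed between 30 and 60 days was not tested.

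Ddx58 encodes RIG-I, the sensor of viral RNA ends. At 30 days Ddx58 stood at 57.1, 55.0, 58.0 and 68.6 CPM in WT females, 68.9, 71.4, 69.1 and 67.8 in KO females, 67.0, 70.3, 51.9 and 68.7 in WT males and 73.1, 84.9, 77.0 and 66.9 in KO males. At 60 days it stood at 86.4, 75.2, 63.9 and 71.8 CPM in WT females, 73.7, 79.1, 78.6 and 89.7 in KO females, 131, 119, 105 and 138 in WT males and 118, 104, 108 and 119 in KO males. At 60 days every male library lay above every female library, and at 30 days the sexes overlapped. Ddx58 was higher in males by 0.73 ± 0.10 in WT and 0.48 ± 0.10 in KO animals (adjusted p = 1.58e-06 and 0.000587). With age it changed by 0.32 ± 0.10 in WT females, 0.21 ± 0.10 in KO females, 0.93 ± 0.10 in WT males and 0.57 ± 0.099 in KO males (adjusted p = 0.0148, 0.131, 2.39e-08 and 5.47e-05).

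Irf1, an early interferon-gamma target and a factor for class I genes, was higher in 60-day females. At 30 days Irf1 stood at 48.3, 27.8, 39.5 and 37.5 CPM in WT females, 40.0, 32.2, 29.5 and 34.1 in KO females, 27.5, 23.7, 21.4 and 37 in WT males and 34.9, 28.5, 32 and 33 in KO males. Its 60-day values were 53.6, 59.5, 61.5 and 63.0 CPM in WT females, 43.1, 50.9, 51.5 and 59.5 in KO females, 30.3, 34.5, 27.2 and 25.4 in WT males and 36.8, 37.5, 33.8 and 36.4 in KO males. The 60-day females of both genotypes stood above all 60-day males. Irf1 was lower in males by -1.02 ± 0.14 in WT (adjusted p = 3.04e-06) and -0.51 ± 0.14 in KO animals (adjusted p = 0.0118), and rose with age in WT and KO females by 0.63 ± 0.14 and 0.60 ± 0.14 (adjusted p = 0.000876 and 0.00245).

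Bst2, the tethering protein tetherin that holds virus particles on the cell surface, was higher in females as well. At 30 days Bst2 stood at 295, 251, 319 and 431 CPM in WT females, 345, 349.7, 367 and 364 in KO females, 271, 250, 178 and 239 in WT males and 248, 289, 252 and 207 in KO males. The 60-day animals had 534, 582, 559 and 580.5 CPM in WT females, 435, 539, 548 and 735 in KO females, 275, 268, 356 and 275 in WT males and 276, 422, 308 and 284 in KO males. At 60 days every female library lay above every male library, and at 30 days the sexes overlapped in WT but not in KO animals. Male minus female differences at 60 days were -0.94 ± 0.16 in WT and -0.81 ± 0.16 in KO animals (adjusted p = 3.69e-05 and 0.000344). With age it rose by 0.80 ± 0.16 in WT and 0.66 ± 0.16 in KO females (adjusted p = 0.000224 and 0.00235).

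Ifit2 was lower in 60-day males in WT (-0.42 ± 0.15, adjusted p = 0.0386) and KO animals (-0.55 ± 0.15, adjusted p = 0.00786), and so was Ifi35, a partner of the STAT-interacting protein Nmi (-0.31 ± 0.10 and -0.41 ± 0.10, adjusted p = 0.0214 and 0.00368). Dtx3l was lower in 60-day WT males (-0.75 ± 0.20, adjusted p = 0.00476), and Psmb8 in 60-day KO males (-0.60 ± 0.19, adjusted p = 0.0228). Rsad2 was higher in 60-day WT males (0.83 ± 0.31, adjusted p = 0.0479). Of 13 Kupffer cell markers 5 were lower in 60-day WT males and 0 in KO males, where 1 was higher, with summed levels of 667 to 789 CPM in WT males and 870.4 to 1358 CPM in WT females, and 549 to 976 and 768 to 1063 CPM in KO males and females. In WT animals 5 of 5 NK cell and 4 of 4 B cell markers were negative in males (medians -0.58 and -0.37), 1 B cell and 1 T cell marker were called lower, and 3 of 7 hepatocyte markers were called higher. In KO animals 5 of 5 NK cell and 4 of 4 B cell markers were negative (medians -0.23 and -0.23) with none called, and 3 hepatocyte markers were called higher and 1 lower. The part of these markers in the differences was not tested.

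**Figure D5:**
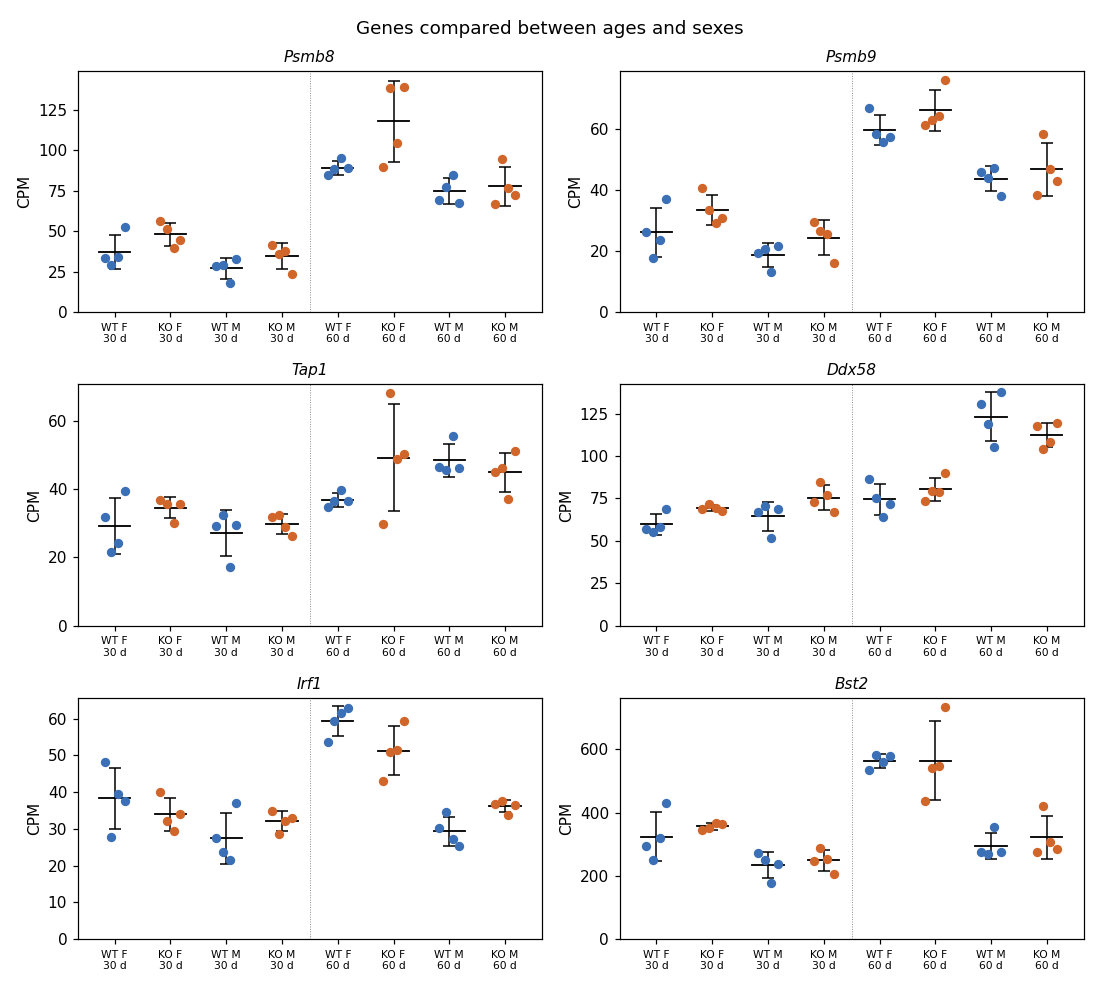
CPM (vertical axes, from 0) of 6 genes in each of the 32 libraries by group (horizontal axes); WT in blue, KO in orange, bars give the mean and SD of 4 libraries. Psmb8 and Psmb9 are higher at 60 than at 30 days in every group, Ddx58 is highest in 60-day males, and Irf1 and Bst2 are highest in 60-day females.

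The rest of the pathway was read from 4 further lists. Of 15 tested genes of signal reception and relay, 16 of nucleic acid sensing, 47 other interferon targets and 15 class I presentation genes, 0 were called between genotypes in 30-day females, 30-day males and 60-day males, by edgeR and 0 by DESeq2. At an unadjusted p below 0.05 there were 0, 1, 8 and 3 genes of the lists in 30-day females, 0, 2, 3 and 0 in 30-day males and 1, 2, 3 and 2 in 60-day males, with 10.7%, 5.94% and 10.8% of all genes at such a p. In 60-day KO females 0, 0, 1 and 1 rose and none fell by edgeR, where 3.48% of all genes rose and 3.29% fell. By DESeq2 0, 0, 2 and 2 rose and 2, 0, 1 and 1 fell. Tor3a, an interferon-induced ATPase of the endoplasmic reticulum, stood at 6.14, 13.6, 6.38 and 16.8 CPM in WT and 39.0, 18.8, 28 and 48.7 CPM in KO females (1.65 ± 0.43, adjusted p = 0.0217). RT1-CE16, a class I gene of a family whose reads may be split, stood at 30.4, 23.6, 25.9 and 26.9 CPM in WT and 25.7, 170.3, 105 and 119 CPM in KO females (1.98 ± 0.59, adjusted p = 0.0424), and 1 KO library, replicate 1 with the photoreceptor markers, lay within the WT range. Without that library RT1-CE16 kept its call (2.30 ± 0.57, adjusted p = 0.0235) and Tor3a did not (1.57 ± 0.47, adjusted p = 0.0604), so that 0, 0, 0 and 2 genes of the lists rose.

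Between genotypes the largest change of the receptor genes Ifnar1 and Ifngr1 was -0.20 (Ifnar1 in 60-day females, adjusted p = 0.0854), and Ifnar2 was not analysed here. Cxcl10, a chemokine that interferon-gamma induces, changed by 0.91 ± 0.32 in 60-day females (adjusted p = 0.0811).

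With age 7 rose and 0 fell among the 15 class I presentation genes in WT females, 7 rose and 0 fell in WT males, 6 rose and 0 fell in KO females and 4 rose and 0 fell in KO males, where 16.0%, 15.7%, 10.6% and 14.0% of all genes rose. Without the photoreceptor-marked library 7 rose and 0 fell in KO females. B2m, the light chain of class I molecules, rose by 0.85 ± 0.11 in WT females, 0.57 ± 0.11 in KO females, 0.83 ± 0.11 in WT males and 0.87 ± 0.11 in KO males (adjusted p = 6.47e-07, 0.000314, 1.08e-06 and 6.42e-07), alongside Psmb8 and Psmb9. Socs3, a feedback inhibitor of JAK signalling, rose by 1.54 ± 0.28, 0.98 ± 0.29, 0.86 ± 0.30 and 1.19 ± 0.30 in that order of groups (adjusted p = 6.68e-05, 0.0129, 0.0301 and 0.00271). Among the 47 other interferon targets 11 rose and 4 fell in WT females, 14 rose and 2 fell in WT males, 5 rose and 2 fell in KO females and 10 rose and 0 fell in KO males. The 5 of 47 that rose in KO females are at the share of all genes, 10.6%, and without the photoreceptor-marked library 9 rose and 1 fell there.

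Ifi47, an interferon-gamma-induced GTPase, was lower in males than in females at both ages and in both genotypes. It stood at 187, 139, 230.3 and 233 CPM in 60-day WT females and 13.1, 17.9, 20.7 and 12.1 CPM in WT males, with a difference of -3.62 ± 0.33 (adjusted p = 4.42e-09). The differences were -2.40 ± 0.31 in 30-day WT, -2.05 ± 0.31 in 30-day KO and -2.46 ± 0.31 in 60-day KO animals (adjusted p = 3.50e-05, 0.000243 and 1.67e-06). In the 30-day KO animals the title number nearly coincides with sex. Ifngr2, a chain of the interferon-gamma receptor, and Psmb10, the remaining inducible proteasome subunit, were lower in 60-day males (-0.94 ± 0.12 and -1.11 ± 0.13 in WT, adjusted p = 3.66e-07 and 1.00e-07). Irf1, Bst2 and Ifi35 had the same direction in both genotypes at 60 days, and Ddx58 the opposite one. Of the 4 further lists, in the order given above, DESeq2 called 1, 1, 4 and 1 genes higher and 4, 4, 8 and 6 lower in 60-day WT males. In 60-day KO males it called 0, 0, 1 and 0 higher and 2, 2, 6 and 2 lower. By edgeR 13.7% of all genes were higher and 12.7% lower in 60-day WT males, and 9.63% and 8.89% in KO males.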

How the data were processed

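Liver RNA-seq libraries were compared in 8 groups of 4 rats. The deposited table gives raw read counts per gene (17327 genes) made by the authors, and the deposited log2 table (11344 genes) was made by the authors from those counts. Each library was scaled to its total over the genes of the log2 table, with no further scaling between libraries. Log2 values recomputed in this way from the counts differed from the deposited ones by at most 5e-09. The submitters' processing notes name STAR, Cufflinks, limma and the build Rnor_5.0, and the role of each, the strand setting and the versions are not given there. Reads assigned to no gene (18.0 to 21.2% per library) and ambiguous reads stayed out of library sizes. In R 4.3.3, edgeR 4.0.16 was used with TMM scaling, a filter on low counts (filterByExpr, minimum count 10), 1 quasi-likelihood model of all 8 groups (24 residual degrees of freedom, common BCV 0.148) and Benjamini-Hochberg adjusted p-values over 11002 genes. log2 CPM values carry a prior count of 2. limma 3.58.1 and DESeq2 1.42.0 gave alternatives, with median-of-ratios scaling, no filter, fits to fewer libraries, a title number as covariate and each library left out. Descriptions without the low 30-day WT libraries, and Tor3a and RT1-CE16 without replicate 1 of the 60-day KO females, were added after seeing the data.

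Tested on simulated data for 60-day KO against WT females (11002 genes), the model recovered 65.7% of 1.5-fold, 83.6% of 2-fold and 98.5% of 4-fold changes, with 9 false calls. The changed genes were drawn at random from all genes tested, whose median SD within groups was 0.19 log2 units against 0.31 for members. Recovery among the members, which vary more, was not simulated. One gene of the pathway lists is not reported here. The members and gene lists were chosen with earlier results of these data known. Values in every library are given for members called between genotypes or in an interaction and for Irf7, Stat2, Irf9, Isg15, Mx1 and Usp18, and full statistics for up to 6 called members per age or sex comparison with the smallest adjusted p; the library values of Trim25, Dtx3l, Psmb8, Psmb9, Ddx58, Irf1, Bst2, Tor3a, RT1-CE16 and Ifi47 were added after they were seen. Rats are separate animals per the labels, which do not say whether littermates are among them. Depth was 12951969 to 21954929 gene reads per library. Reads of Mx1 and Mx2, of the Oas1, Ifit and Gbp families and of RT1 class I genes may be split by counting, and reads of Parp9 and Dtx3l, and of Rtp4 and Masp1, share loci.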

Additional observations from a re-analysis of the deposited data

Results flagged for a closer look

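Among 88 sets of 4 libraries (11 measures in 8 groups), 6 held a library whose gap to the nearest of the others exceeded the critical share of the group's range for 4 samples in Dixon's test, and chance gives about 1 in 20. Rtp4 stood at a log2 CPM of 1.96 in replicate 3 of the 30-day WT males, with 3.95 to 4.12 in the others, and Parp9 at 5.13 in the same library, with 5.67 to 5.74 in the others. In replicate 1 of the 60-day WT females Rtp4 reached 5.77 (others 5.13 to 5.21) and Ifit2 5.33 (others 4.73 to 4.82). Isg15 stood at 1.88 in replicate 4 of the 30-day KO males (others 2.53 to 2.66), and Usp18 at 3.00 in replicate 3 of the 60-day KO males (others 3.67 to 3.81). The mean log2 CPM of all members was among the measures, and neither low 30-day WT library was flagged on it. The low library of the 30-day WT females was flagged on none of the measures.

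The difference of Parp9 between KO and WT females differed between the ages, by an interaction of -1.34 on the log2 scale (edgeR's quasi-likelihood test, adjusted p = 0.00502). At 30 days the title number nearly coincides with genotype in females, and its part in the interaction was not tested.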

How the results depend on the processing

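Of the counts of called members recomputed under other settings, 197 stayed within 1.5 times the reported count and 43 did not. In 30-day females (1 reported), 2 members were called by DESeq2 and 2 on the deposited log2 values (Rtp4 and Stat2 in both), 0 in a fit to the 8 libraries compared and 0 with the title number as covariate. With the 16 libraries of 30-day animals alone the count was 1, but the gene was Stat2 and Rtp4 had an adjusted p of 0.0966. In 60-day females (3 reported), 5 were called by DESeq2 and 0 in the fit to 8 libraries. DESeq2 called 1 member for sex in 30-day WT animals (0 reported). For sex in 30-day KO animals (1 reported) DESeq2 called 2, and 0 were called without the filter and 0 on the deposited log2 values. For sex in 60-day WT animals (7 reported) 11 were called in the fit to 16 libraries. For age by genotype in females (1 reported) 2 were called by DESeq2 and 2 on the deposited log2 values.

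With each library left out in turn the count ran from 0 to 2 in 30-day females, from 1 to 5 in 60-day females (5 without WT replicate 1), from 4 to 8 for age in KO females, from 0 to 1 for sex in 30-day WT and from 0 to 1 in 30-day KO animals, from 4 to 7 for sex in 60-day WT animals, from 0 to 1 for sex by genotype at 60 days and from 1 to 3 for age by genotype in females. For the remaining comparisons every such count stayed within 1.5 times of the reported one. Of 77 values for the genes called between genotypes or in the interaction, all kept their direction, 55 kept and 22 lost their call. In the fit to 8 libraries Rtp4, Ifit2, Rsad2 and Parp9 had adjusted p-values of 0.110, 0.0996, 0.0943 and 0.154. Over all genes the count in 60-day females was 745, with 277 in the fit to 16 and 56 in the fit to 8 libraries, and in 30-day females 33, with 92 by DESeq2, 15 on the deposited log2 values and 8 in the fit to 8 libraries. The cause of these differences was not tested, and fewer libraries leave fewer residual degrees of freedom. Low counts limit Zbp1 most, since its libraries held few reads. No paired analysis was possible because nothing in the labels ties a rat of one group to a rat of another, and replicate numbers were given in accession order.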
